A study of Mus musculus with 10 samples.

Results

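The extracellular matrix genes described here were 46 listed genes for collagens, laminins and other basement membrane proteins, matrix glycoproteins, elastic fibre proteins, small leucine-rich proteoglycans and crosslinking enzymes, measured by RNA sequencing in NIH3T3 cells, a mouse embryo fibroblast line. Rows were matched to the list by gene symbol, with no threshold on measured values. Of the 46 genes, 38 had a row of their own among the 18430 rows of the deposited table, and all 38 were among the 12842 rows that were tested. Loxl3 and Lamb2 occurred only in rows joined with neighbouring genes, and Col15a1, Fbn2, Fbln1, Lum, Loxl2 and Lama2 were not analysed here. The 10 libraries came from parental NIH3T3 cells (1 library), cells stably carrying the vector (1 library), 4 clones stably overexpressing FOXP2 and 4 clones stably overexpressing FOXP2-CPED1, which the series' title names as an arrangement of FOXP2. The question was how each construct alters the transcripts of these fibroblasts. Parent and vector together were the control arm. Each clone and each control gave 1 library, and p-values measure only the spread between these cultures. The labels do not say whether the vector cells are a clone, nor the species or promoter of the introduced sequence. In the comparisons with control, effects of a construct and of deriving clones cannot be told apart.

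Fibroblasts build most of the interstitial matrix. Collagen chains assemble into triple helices, some as fibrils of types I, III and V, others as the networks of type IV or the beaded filaments of type VI. Laminins, which are heterotrimers of an alpha, a beta and a gamma chain, polymerise on the cell surface and are tied to collagen IV by nidogens and perlecan to give the basement membrane. Elastin is laid down on fibrillin microfibrils with the help of fibulins. Lysyl oxidases start the crosslinks of collagen and elastin, and lysyl hydroxylases modify lysines of collagen.

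Values are RPKM, reads scaled by transcript length and library size, so that levels can be compared between genes. Relative depth ran from 0.912 to 1.32 of the parental library, and absolute depth is unknown. The mitochondrially encoded rows were listed at 0 in 3 libraries, FOXP2 clones 2 and 4 and FOXP2-CPED1 clone 3. The mouse Foxp2 row lay at 0.0785 to 0.0798 RPKM in control and at 0.0674 to 1.02 RPKM in the clones, and the Cped1 row at 24.2 and 27.0 RPKM in control, 6.43 to 31.0 in FOXP2 clones and 16.8, 21.5, 25.4 and 6.69 in FOXP2-CPED1 clones. No FOXP2-CPED1 clone lay above both controls for Cped1. Whether either row takes reads of the introduced sequence is not given in the labels, so these rows do not check the labels. Of 7 measured fibroblast markers, the summed level was 3217 to 3561 RPKM in control, 1715 to 2726 in FOXP2 and 2137 to 2444 in FOXP2-CPED1 clones. Most of that sum was Vim, at 3140 and 2794 RPKM in control and 1295 to 2420 in the clones. Prrx1, another of these markers, was at 76.4 and 83.5 RPKM in control and 70.9 to 90.4 in the clones. Thy1 was at 156 and 149 RPKM in control and 61.8 to 135 in the clones, and Pdgfra at 48.3 and 51.9 against 28.0 to 177. With all 8 clones against control, 1 of the 7 had a positive fold change. Defining markers of epithelium, endothelium and blood had a row for 2, 2 and 1 of 6 listed genes each. Their summed levels over the 10 libraries were 0.779 to 5.19, 1.86 to 17.1 and, for Lyz2 alone, 13.6 to 33.7 RPKM. Of 6 chondrocyte and bone markers, 2 had a row, Sox9 and Runx2, and they summed to 48.3 to 111 RPKM.

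The sequences upstream of 5 of these genes, whose transcripts are described below, are shown. Col6a1, Col6a2 and Col6a3 encode the 3 chains of collagen VI, of which the first pair varied together between clones while Col6a3 did not. Whether Col6a1 varied as closely with genes outside its named pairs was not tested. Nid1 and Lamb1 encode a nidogen and a laminin chain that stood above control in every FOXP2-CPED1 clone. So did 13.2% of the 38 genes, near the 12.2% of all tested rows, and neither Nid1 nor Lamb1 passed the test. The stretches come from RefSeq on GRCm38.p6 and are written 5′ to 3′ on the strand of the gene, leaving out bases that overlap an annotated exon. Capitals mark matches, on either strand, to 5 short motifs spelled out after the sequences. They are Col6a1 at chr10:76726169-76726294 (minus strand), Col6a2 at chr10:76623631-76623880 (minus), Col6a3 at chr1:90844002-90844221 (minus), Nid1 at chr13:13437352-13437550 (plus) and Lamb1 at chr12:31265043-31265145 (plus).
Col6a1: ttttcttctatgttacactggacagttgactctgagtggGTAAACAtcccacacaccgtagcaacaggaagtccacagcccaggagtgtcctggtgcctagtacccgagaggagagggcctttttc
Col6a2: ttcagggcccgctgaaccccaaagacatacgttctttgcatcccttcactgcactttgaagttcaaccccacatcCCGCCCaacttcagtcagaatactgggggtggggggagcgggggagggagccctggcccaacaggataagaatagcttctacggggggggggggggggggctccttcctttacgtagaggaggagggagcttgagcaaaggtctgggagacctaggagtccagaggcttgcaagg
Col6a3: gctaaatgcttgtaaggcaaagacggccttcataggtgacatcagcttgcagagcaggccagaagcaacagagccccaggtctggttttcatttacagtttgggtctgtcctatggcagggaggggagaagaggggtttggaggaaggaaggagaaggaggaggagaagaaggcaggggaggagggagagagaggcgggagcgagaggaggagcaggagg
Nid1: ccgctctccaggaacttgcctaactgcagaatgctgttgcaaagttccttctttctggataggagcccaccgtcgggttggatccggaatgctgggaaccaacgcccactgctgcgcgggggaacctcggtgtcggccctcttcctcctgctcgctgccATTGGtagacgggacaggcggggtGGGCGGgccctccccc
Lamb1: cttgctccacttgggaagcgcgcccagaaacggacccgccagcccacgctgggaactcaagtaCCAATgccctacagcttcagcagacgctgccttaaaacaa

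RefSeq windows of 250 bases before the start were matched for 26 of the 38 genes, and these 26 had 32 windows. The forkhead motif TGTTTAC occurred, on the opposite strand, in the window of 1 of the 26, Col6a1, and in 3.17% of all 32851 windows. The forkhead motif TATTTAT occurred in 0 of the 26 and in 5.17% of all windows. The GC box GGGCGG was present in 23 of the 32 windows (20 of the 26 genes) against 32.7% of all windows. The CCAAT box was present in 10 of the 32 windows (10 genes) against 33.8%, and the TATA box TATAAA in 5 (4 genes) against 12.4%. These motifs were searched on both strands, and a match of letters does not show that a factor binds. Col6a2 and Col6a1 lie 85.2 kb apart on chromosome 10, while Col6a3 is on chromosome 1.

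No matrix gene passed the test with either construct, and fold changes lay on both sides of 0: 12 of 38 were positive with FOXP2 (52.3% of all tested rows) and 19 with FOXP2-CPED1 (50.3%). Between FOXP2-CPED1 and FOXP2, 31 of 38 were positive (47.1% of all rows). Together the 38 genes made up 1.11 and 1.20% of the summed RPKM of the parent and vector libraries, and from 0.783% (FOXP2 clone 2) to 1.46% (FOXP2-CPED1 clone 3) in the clones. The mitochondrial rows were at 0 in both of these clones. With those rows left out of every sum, parent and vector were at 1.15 and 1.26%. The range in the clones was unchanged, with FOXP2 clone 3 at 1.45%. The highest mean over all libraries belonged to Col1a2 (2087 RPKM), followed by Fn1 (1838), Col1a1 (1071), Sparc (1024), Bgn (779) and Lox (730 RPKM). At the other end, Lama5 averaged 1.65 RPKM and Postn 2.26 RPKM. In limma, 0 of the 38 passed an adjusted p of 0.05 with FOXP2 against control, where 0.436% of all tested rows did, and 2 had an unadjusted p under 0.05 (8.52% of all rows). With FOXP2-CPED1 against control 0 passed (0.35% of all rows), and 4 had an unadjusted p under 0.05 (7.28% of all rows). For FOXP2-CPED1 against FOXP2 the counts were 0 (0.0% of all rows) and 0 (2.16%), and for all 8 clones against control 0 (0.537%) and 2 (9.10%). The median log2 fold change of the 38 was -0.13 with FOXP2 (0.02 over all rows), 0.00 with FOXP2-CPED1 (0.00), and 0.11 between FOXP2-CPED1 and FOXP2 (-0.01). In a fit that dropped FOXP2 clones 2 and 4 and FOXP2-CPED1 clone 3, whose mitochondrial rows were 0, these medians were 0.00, -0.06 and -0.10. Without FOXP2-CPED1 clone 2 the median between constructs was 0.0036, without FOXP2-CPED1 clone 4 it was 0.30, and without FOXP2 clone 2 it was 0.03. Both constructs were compared with the same 2 control libraries. In bulk RNA, fewer cells expressing a gene and less RNA per cell cannot be told apart.

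**Figure D1:**
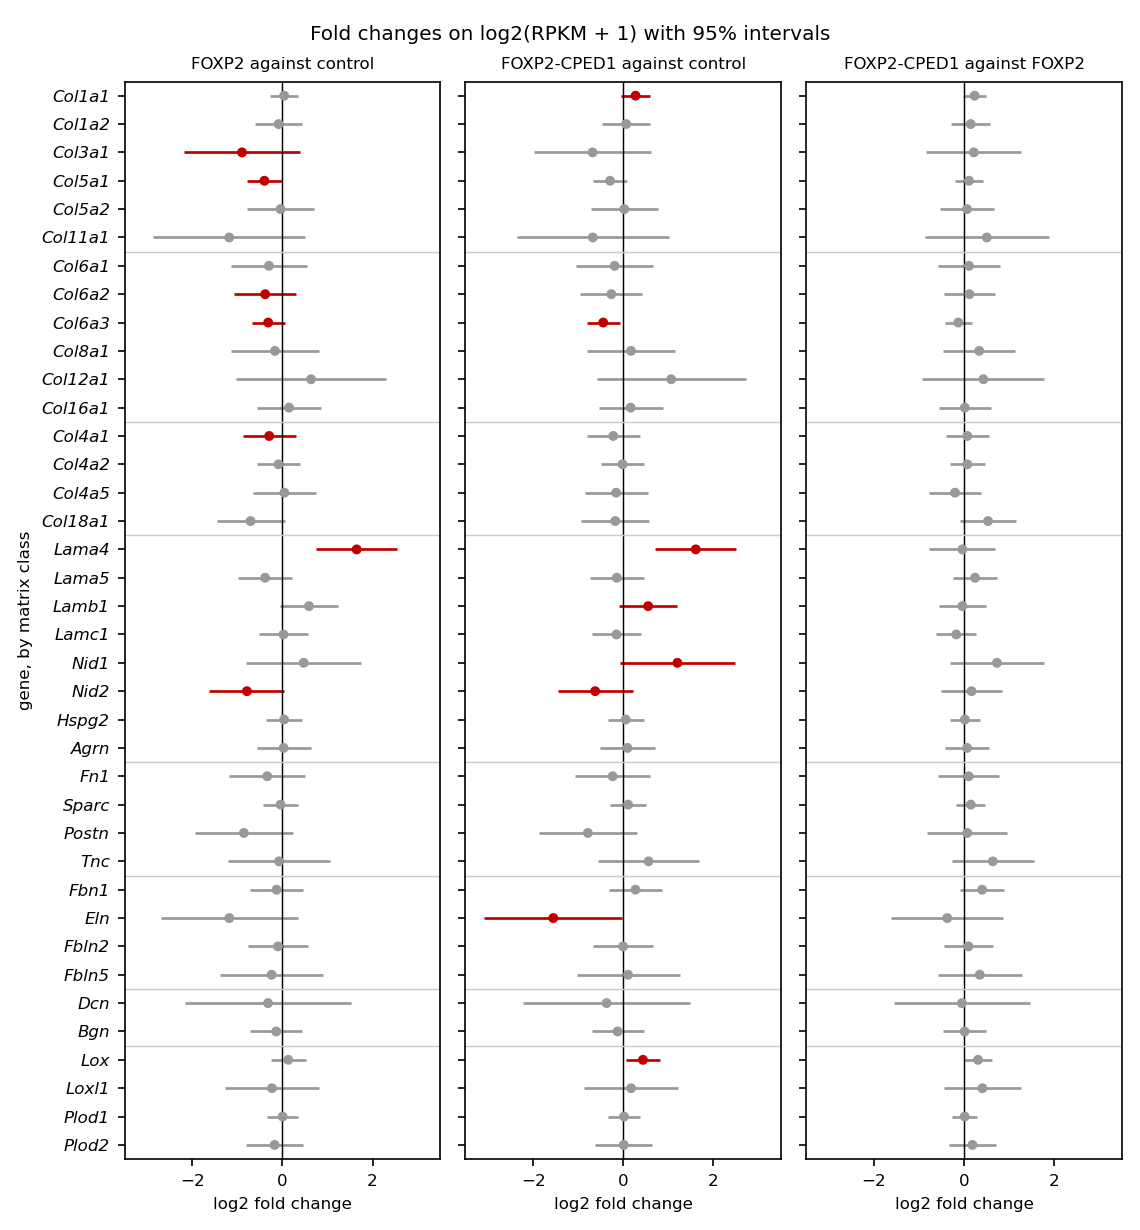
Log2 fold changes on log2(RPKM + 1) with 95% intervals from limma for the 38 genes, ordered by matrix class, in 3 comparisons. Red points are genes whose libraries do not overlap between the 2 groups compared: 7 with FOXP2, 8 with FOXP2-CPED1 and 0 between the constructs.

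Without regard to the test, 1 of the 38 genes lay above both control libraries in all 4 FOXP2 clones (9.13% of all rows did) and 6 lay below (10.4% of all rows). With FOXP2-CPED1 the counts were 5 above (12.2% of all rows) and 3 below (13.3%). For all 8 clones there was 1 above (5.44%) and 2 below (6.38%), and between the constructs 0 were above (0.568%) and 0 below (0.802%). The counts of matrix genes lay on both sides of these background shares.

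The laminins and nidogens held the gene with the smallest p of the list. Lama4, the laminin alpha chain of vessel and mesenchymal basement membranes (chr10:38965515-39110188 on GRCm38), was at 2.98 RPKM in parent and 3.29 in vector. It was at 8.80, 10.3, 22.9 and 9.60 RPKM in FOXP2 clones 1 to 4 and at 16.6, 9.99, 15.8 and 6.77 in FOXP2-CPED1 clones 1 to 4. All 8 clones lay above both controls, FOXP2 clone 3 highest. The log2 fold change was 1.65 ± 0.40 (SE; limma adjusted p = 0.169) with FOXP2 and 1.61 ± 0.40 (adjusted p = 0.218) with FOXP2-CPED1. For all 8 clones it was 1.63 ± 0.37, or 3.09-fold on RPKM + 1 with a 95% interval of 1.75 to 5.45, at an adjusted p of 0.118, so the difference did not pass the threshold. Mean levels without the added 1 were 3.13 RPKM in control and 12.6 RPKM in the clones. With libraries weighted by quality the adjusted p was 0.00111, and it was 0.998 and 0.879 without parent and without vector. The constructs differed by -0.04 (95% interval -0.77 to 0.69), with an adjusted p of 1.00.

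Lamb1 and Lamc1 encode the beta and gamma chains that pair with such alpha chains. Lamb1 was at 21.9 and 22.5 RPKM in parent and vector, at 28.0, 44.5, 48.1 and 21.9 in the FOXP2 clones and at 37.3, 33.0, 36.2 and 26.4 in the FOXP2-CPED1 clones. Thus 7 of 8 clones exceeded both controls and FOXP2 clone 4 did not. Its log2 fold change was 0.59 ± 0.29 with FOXP2 (adjusted p = 0.644) and 0.55 ± 0.29 with FOXP2-CPED1 (adjusted p = 0.742). Lamc1 was at 35.6 and 39.8 RPKM in control, 31.2 to 48.7 in FOXP2 and 25.0 to 42.9 in FOXP2-CPED1 clones, which overlap. The Lama4 to Lamc1 ratio of RPKM was therefore 0.084 and 0.083 in the controls and 0.158 to 0.702 in the clones, with no overlap. Lama5, an alpha chain of mature epithelial basement membranes, was at 0.788 to 2.44 RPKM in every library.

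The nidogens, which link laminin to collagen IV, differed from each other. Nid1 was at 82.7 and 95.5 RPKM in parent and vector, at 147, 146, 254 and 42.9 in the FOXP2 clones and at 316, 139.9, 231 and 175 in the FOXP2-CPED1 clones. All FOXP2-CPED1 clones lay above both controls, whereas FOXP2 clone 4 lay below them. The log2 fold change was 0.47 ± 0.57 with FOXP2 and 1.20 ± 0.57 with FOXP2-CPED1 (adjusted p = 0.877 and 0.706 in limma). Nid2 was at 4.17 and 4.26 RPKM in control, at 1.19, 1.81, 3.71 and 1.88 in FOXP2 clones and at 2.15, 3.83, 3.31 and 1.00 in FOXP2-CPED1 clones. All 8 clones lay below both controls, by -0.70 ± 0.34 on the log2 scale (adjusted p = 0.578). Perlecan (Hspg2) lay at 45.3 to 69.1 RPKM over all libraries, and agrin (Agrn) ran from 13.4 to 26.7 RPKM. The joined row of Usp19 and Lamb2 was at 154 and 150.1 RPKM in control and at 65.2 to 143 in the clones, and its reads cannot be assigned to either gene.

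**Figure D2:**
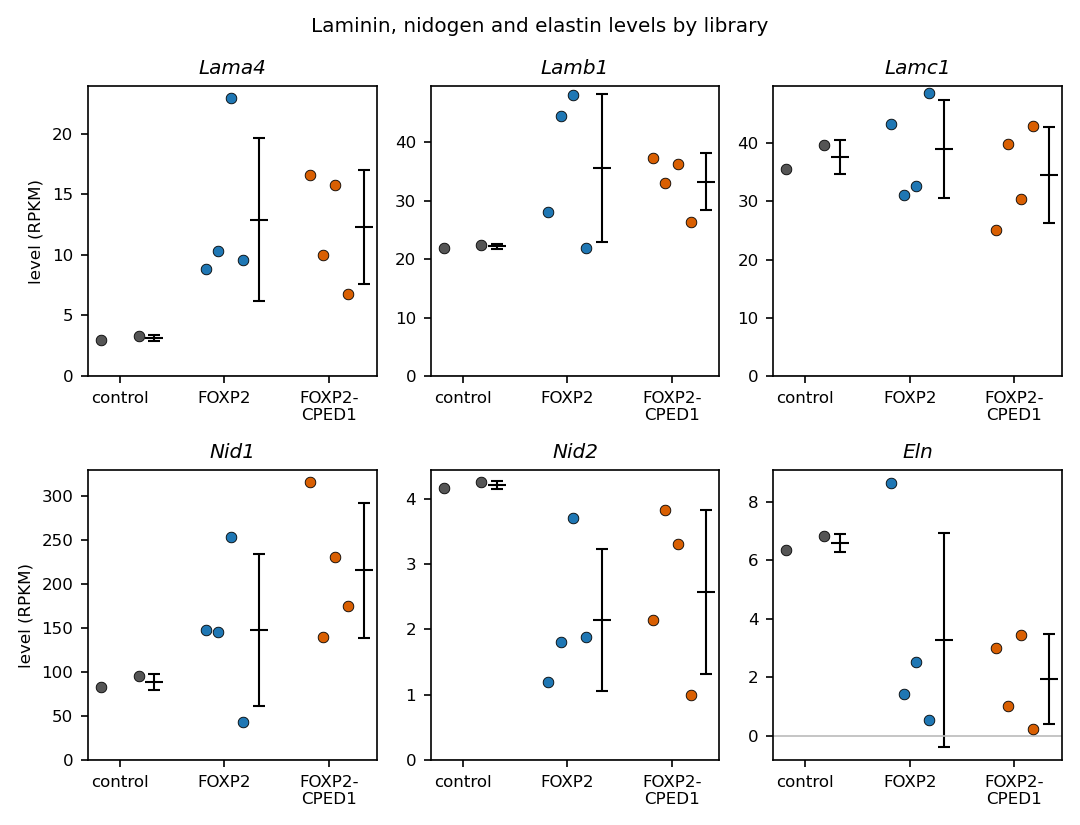
Level in RPKM of 6 genes in each library (points) with the mean and SD of the arm beside them, for control (2 libraries), FOXP2 (4) and FOXP2-CPED1 (4). Lama4 in the clones lies at 6.77 RPKM or more against at most 3.29 in control, Nid2 lies below control in every clone, and Lamc1 overlaps.

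Among the fibrillar collagens, Col1a1 varied little between clones (SD 0.18 on the log2 scale), Col1a2 more (0.30) and Col3a1 most of these 3 (0.80). Col1a1, which gives the alpha 1 chain of collagen I, was at 960.0 and 992 RPKM in control, at 889, 907, 1136 and 1105 in FOXP2 clones and at 1217, 1239, 1179 and 1086 in FOXP2-CPED1 clones. The FOXP2-CPED1 clones all lay above control and the FOXP2 clones on both sides of it. With FOXP2-CPED1 the log2 fold change was 0.27 ± 0.14 (adjusted p = 0.739), and the difference between constructs was 0.23 ± 0.12 (adjusted p = 1.00). Col1a2, the alpha 2 chain, was at 2082 and 2055 RPKM in control and between 1326 (FOXP2 clone 2) and 2430 (FOXP2-CPED1 clone 3) in the clones, with log2 fold changes of -0.08 ± 0.24 and 0.06 ± 0.24 (adjusted p = 0.958 and 0.981 in limma). The ratio of Col1a1 to Col1a2 ran from 0.435 to 0.684 over the 10 libraries.

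Col3a1, the chain of collagen III, was at 692 and 743 RPKM in control. In FOXP2 clones it was at 496, 169.9, 641 and 407, and in FOXP2-CPED1 clones at 413, 906, 509.5 and 208. All 4 FOXP2 clones lay below control, as did 3 FOXP2-CPED1 clones, and FOXP2-CPED1 clone 2 lay above it. With FOXP2 the log2 fold change was -0.89 ± 0.58 (adjusted p = 0.746) and -0.68 ± 0.58 with FOXP2-CPED1 (adjusted p = 0.872).
Col5a1, the chain of collagen V that nucleates fibrils, was at 103 and 112 RPKM in control, at 76.0, 76.8, 92.9 and 79.3 in FOXP2 clones and at 83.1, 113, 77.9 and 79.03 in FOXP2-CPED1 clones. The FOXP2 clones lay below control without overlap (log2 fold change -0.40 ± 0.17, unadjusted p = 0.0426, adjusted p = 0.556 in limma). Its partner Col5a2 was at 119 and 127 RPKM in control and spread to both sides, from 80.6 to 183 RPKM, in the clones. Col11a1, a minor fibril chain, was at 5.85 and 6.19 RPKM in control and ranged 40.7-fold between clones, from 0.259 in FOXP2 clone 3 to 10.5 in FOXP2 clone 4. Its log2 fold changes were -1.18 ± 0.76 with FOXP2 and -0.68 ± 0.76 with FOXP2-CPED1, with adjusted p of 0.743 and 0.898.

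Among the other interstitial collagens, the chains of collagen VI, a beaded filament around cells, did not vary alike. Col6a1 was at 230.2 and 229.8 RPKM in control, at 253, 129, 199.9 and 187 in FOXP2 clones and at 243, 266, 252 and 100.4 in FOXP2-CPED1 clones. Col6a2 was at 197 and 189.6 in control, at 189, 126, 144 and 140.4 in FOXP2 clones and at 196, 204, 186 and 89.3 in FOXP2-CPED1 clones. FOXP2-CPED1 clone 4 and FOXP2 clone 2 were lowest for both, as they were for Dcn and Fn1. A second Col6a1 row, of lower mean, was at 196 and 155 RPKM in control, at 117, 114, 124 and 67.9 in FOXP2 clones and at 184, 175, 134 and 54.9 in FOXP2-CPED1 clones. In that row all FOXP2 clones lay below both controls, and FOXP2 clone 4 was the lowest of them. The FOXP2 clones lay below control for Col6a2 (log2 fold change -0.38 ± 0.31, adjusted p = 0.810 in limma). Over the 8 clones the log2 levels of Col6a1 and Col6a2 had a Pearson r of 0.97 (exact permutation p = 0.000174, Benjamini-Hochberg 0.00174 over 10 partner pairs) and a Spearman rho of 0.93 (exact permutation p = 0.00223, Benjamini-Hochberg 0.0223). Without the 2 clones farthest from the median, FOXP2-CPED1 clone 4 and FOXP2 clone 2, r was 0.98 (exact permutation p = 0.00972). With the second Col6a1 row r was 0.85 (exact permutation p = 0.00605), and with both rows summed it was 0.98 (exact permutation p = 4.96e-05). Col6a1 was correlated only with Col6a2 and Col6a3, so these values do not show a relation particular to the pair.

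Col6a3, the third chain, was at 119 and 130.2 RPKM in control, at 106, 99.0, 81.7 and 115 in FOXP2 clones and at 81.3, 85.3, 105 and 94.6 in FOXP2-CPED1 clones. All 8 clones lay below both controls. With FOXP2 the log2 fold change was -0.31 ± 0.16 (adjusted p = 0.675) and -0.45 ± 0.16 with FOXP2-CPED1 (unadjusted p = 0.0216, adjusted p = 0.529). With all 8 clones it was -0.38 ± 0.15 (adjusted p = 0.474). Its r with Col6a1 over the clones was -0.12 (exact permutation p = 0.770, Spearman rho -0.05 with exact permutation p = 0.935). Without FOXP2-CPED1 clone 4 and FOXP2 clone 2 the r was -0.21, and with the second Col6a1 row over 8 clones it was -0.55 (exact permutation p = 0.166). The Col6a3 to Col6a1 ratio was 0.515 and 0.567 in control, lowest in FOXP2-CPED1 clone 2 (0.321) and highest in FOXP2-CPED1 clone 4 (0.941).

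**Figure D3:**
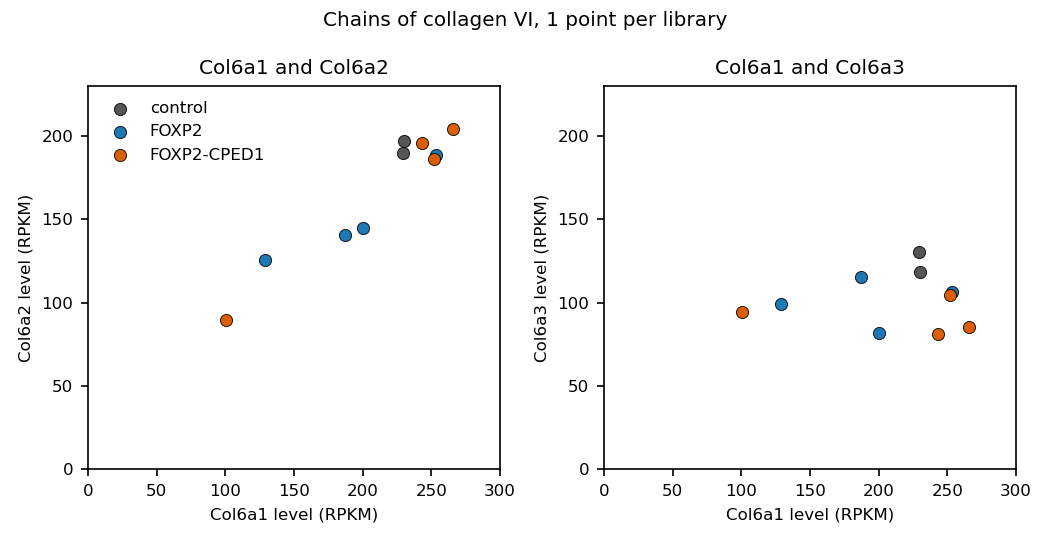
Level in RPKM of Col6a2 (left) and Col6a3 (right) against Col6a1, 1 point per library, coloured by arm. Col6a2 follows Col6a1 over the 8 clones (r = 0.97 on the log2 scale), whereas Col6a3 does not (r = -0.12) and lies lower in all clones than in both controls.

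Of the remaining interstitial collagens, Col12a1, which decorates fibrils, was at 4.21 and 5.39 RPKM in control, at 10.2, 7.78, 13.8 and 3.45 in FOXP2 clones and at 44.8, 7.82, 9.28 and 4.09 in FOXP2-CPED1 clones. FOXP2-CPED1 clone 1 stood far above the others, and the last clone of each construct lay below control. The log2 fold change was 0.64 ± 0.74 and 1.06 ± 0.74 with the constructs (adjusted p = 0.874 and 0.845). Col8a1, a network-forming chain, was at 9.45 and 10.8 RPKM in control and at 3.54 to 17.2 in the clones, and Col16a1, a fibril-associated chain, at 71.5 and 73.3 in control and at 45.4 to 117 in the clones.

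No basement membrane collagen passed the test. Col4a1 was at 92.9 and 94.9 RPKM in control, at 90.2, 63.2, 79.7 and 75.7 in FOXP2 clones and at 57.0, 120.02, 88.9 and 68.5 in FOXP2-CPED1 clones. The FOXP2 clones lay below both controls, with a log2 fold change of -0.29 ± 0.26 (adjusted p = 0.826), and the FOXP2-CPED1 clones overlapped with them (-0.22 ± 0.26, adjusted p = 0.906). Col4a2, which shares a bidirectional promoter with Col4a1 and starts 21 bases from it on chromosome 8, was at 66.3 and 68.4 in control and 50.5 to 85.7 in the clones. Over the 8 clones the pair had an r of 0.82 (exact permutation p = 0.0128, Benjamini-Hochberg 0.0479; rho 0.81, exact permutation p = 0.0218, Benjamini-Hochberg 0.109). Without the 2 clones farthest from the Col4a1 median, FOXP2-CPED1 clones 1 and 2, r was 0.51 (exact permutation p = 0.310). Leaving out the extreme clones narrows the range, so this value cannot show whether the other clones share the relation. Col4a5, an X-linked chain of the same family, ranged from 17.0 to 43.8 RPKM in the clones and was 29.7 and 30.3 in control. Col18a1, the precursor of endostatin, was at 5.05 and 4.18 RPKM in control, at 4.87, 1.20, 2.55 and 2.02 in FOXP2 clones and at 2.87, 5.03, 4.52 and 3.66 in FOXP2-CPED1 clones. Its log2 fold change with FOXP2 was -0.70 ± 0.34 (adjusted p = 0.625), and its difference between constructs was 0.53 ± 0.28 (adjusted p = 1.00).

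The matrix glycoproteins Fn1 and Sparc were abundant. Fibronectin (Fn1) was at 1980 and 2161 RPKM in control, at 1786, 958, 2461 and 1713 in FOXP2 clones and at 1855, 2269, 2144 and 1053 in FOXP2-CPED1 clones, lowest in FOXP2 clone 2 and FOXP2-CPED1 clone 4. Its log2 fold change was -0.34 ± 0.38 with FOXP2 (adjusted p = 0.869). Sparc, a collagen-binding glycoprotein, stayed within 853 to 1270.2 RPKM, and the vector library was at 931 against 1069 in parent (log2 fold changes -0.04 ± 0.18 and 0.11 ± 0.18, adjusted p = 0.976 and 0.938 in limma). Tenascin C (Tnc), an adhesion-modulating glycoprotein, was at 5.29 and 5.80 RPKM in control, at 6.51, 7.74, 7.68 and 1.61 in FOXP2 clones and at 14.4, 6.89, 10.8 and 5.05 in FOXP2-CPED1 clones, with an adjusted p of 1.00 in limma for the difference between constructs (log2 0.64 ± 0.41). Periostin (Postn), a collagen-binding matricellular protein, was at 3.29 and 4.13 RPKM in control, at 3.76, 1.33, 0.822 and 1.24 in FOXP2 clones and at 1.80, 4.04, 1.80 and 0.386 in FOXP2-CPED1 clones. In each construct 3 of the 4 clones lay below both controls, and FOXP2 clone 1 and FOXP2-CPED1 clone 2 lay between them. The log2 fold changes were -0.85 ± 0.49 and -0.79 ± 0.49 (adjusted p = 0.704 and 0.804 in limma).

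The elastic fibre genes included the low and variable elastin. Eln was at 6.37 and 6.82 RPKM in control, at 8.64, 1.42, 2.52 and 0.553 in FOXP2 clones and at 2.99, 1.02, 3.46 and 0.249 in FOXP2-CPED1 clones. All FOXP2-CPED1 clones lay below control, FOXP2 clone 1 above it and the other FOXP2 clones below. With FOXP2-CPED1 the log2 fold change was -1.55 ± 0.69 (unadjusted p = 0.0469, adjusted p = 0.674) and -1.18 ± 0.69 with FOXP2 (adjusted p = 0.708). Fibrillin 1 (Fbn1), the microfibril scaffold, was at 48.8 and 55.5 RPKM in control, 36.5 to 64.8 in FOXP2 and 44.4 to 80.0 in FOXP2-CPED1 clones, and its difference between constructs was 0.40 ± 0.22 on the log2 scale (adjusted p = 1.00 in limma). Fibulin 5 (Fbln5), which helps elastin deposition, was at 60.7 and 62.03 in control and 22.8 to 107 in the clones. Fibulin 2 (Fbln2), a microfibril-binding protein, was at 444 and 446 in control and 293 to 713 in the clones. Eln therefore stood at 0.131 and 0.123 of Fbn1 in control and at 0.004 to 0.174 in the clones.

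The proteoglycans decorin (Dcn) and biglycan (Bgn), which bind collagen fibrils, differed in spread. Dcn was at 202 and 209 RPKM in control, at 223, 74.8, 342 and 128 in FOXP2 clones and at 267, 315, 214 and 34.8 in FOXP2-CPED1 clones. The spread ran to both sides of control in both constructs (log2 fold changes -0.32 ± 0.83 and -0.37 ± 0.83, adjusted p = 0.951 and 0.958). Bgn was at 806 and 839 in control and at 513 to 1019 in the clones, lowest in the same FOXP2-CPED1 clone 4 as Dcn (log2 fold changes -0.14 ± 0.26 and -0.13 ± 0.26, adjusted p = 0.931 and 0.953 in limma).

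Of the crosslinking enzymes, lysyl oxidase (Lox) was at 599.7 and 631 RPKM in control, at 842, 608, 715 and 561 in FOXP2 clones and at 839, 842, 924 and 737 in FOXP2-CPED1 clones. All FOXP2-CPED1 clones lay above control and the FOXP2 clones overlapped it. The log2 fold change was 0.44 ± 0.17 with FOXP2-CPED1 (unadjusted p = 0.0305, adjusted p = 0.589), 0.13 ± 0.17 with FOXP2 (adjusted p = 0.892) and 0.31 ± 0.14 between the constructs (adjusted p = 1.00). Loxl1, a paralogue needed for elastin renewal, was at 68.4 and 66.03 in control and at 23.6 to 106 in the clones, with log2 fold changes of -0.23 ± 0.47 and 0.17 ± 0.47 (adjusted p = 0.934 and 0.968 in limma). The lysyl hydroxylases Plod1 and Plod2 stayed within 38.1 to 53.3 and 13.1 to 30.6 RPKM, and the log2 fold change of Plod2 with FOXP2 was -0.17 ± 0.28 (adjusted p = 0.913 in limma). The joined row that contains Loxl3 was at 146 and 137 in control and at 103 to 133 in the clones, and cannot be assigned.

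The spread between clones was larger for the median matrix gene than for the median tested row. The SD of log2(RPKM + 1) over the 8 clones had a median of 0.41 for the 38 genes and 0.28 for all tested rows. The rows were not matched to the 38 genes for level, and the added 1 narrows the spread of low rows. Within FOXP2 clones these medians were 0.43 and 0.30, and within FOXP2-CPED1 clones 0.44 and 0.23. Between parent and vector the largest log2 difference among the 38 genes was 0.29. Of the 38, 0 differed at least 2-fold between these libraries, against 2.30% of all tested rows. The widest spreads were those of Dcn (1.14), Col11a1 (1.06), Col12a1 (1.04), Eln (0.95), Nid1 (0.87) and Col3a1 (0.80), and the narrowest were Plod1 (0.16) and Col1a1 (0.18). From the lowest to the highest clone the level of Col11a1 spanned 40.7-fold, Eln 34.7-fold, Col12a1 13.0-fold, Postn 10.5-fold and Dcn 9.83-fold, against 1.39-fold for Col1a1. The lowest values of Col11a1, Eln and Postn were under 1 RPKM, and on RPKM + 1 the spans were 9.17, 7.72, 10.3, 3.64 and 9.58-fold, in the same gene order, with Col12a1 widest.

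**Figure D4:**
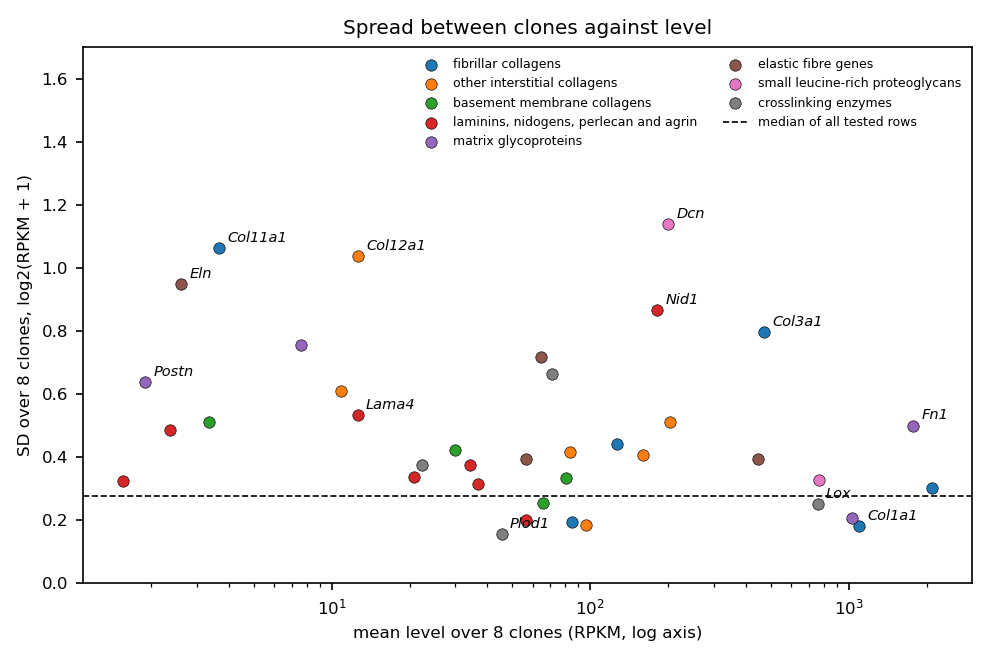
SD of log2(RPKM + 1) over the 8 clones against mean level over them in RPKM (log axis), 1 point per gene, coloured by matrix class, with the median SD of all tested rows (0.28) as a dashed line. Dcn, Col11a1, Col12a1 and Eln lie near or above 1, and Col1a1, at a high level, lies at 0.18.

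Libraries differed in how many of the genes sat below control. In FOXP2 clone 2, 27 of the 38 genes lay below both controls and in FOXP2-CPED1 clone 4, 28 did, where 42.0% and 42.4% of all rows did. In FOXP2-CPED1 clone 2, 29 genes lay above both controls (40.2% of all rows), and it had the highest of the 10 values for 13 genes (5.67% of all rows). Each of FOXP2 clone 2 and FOXP2-CPED1 clone 4 held the lowest value for 9, where 16.8 and 12.9% of all rows had their lowest value there. The median difference from control over the 38 genes was -0.41 in FOXP2 clone 2, -0.28 in FOXP2-CPED1 clone 4 and 0.22 in FOXP2-CPED1 clone 2. The rows of mitochondrially encoded genes were at 0 in FOXP2 clone 2 but not in FOXP2-CPED1 clone 4. Whether this bears on the matrix genes was not tested.

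**Figure D5:**
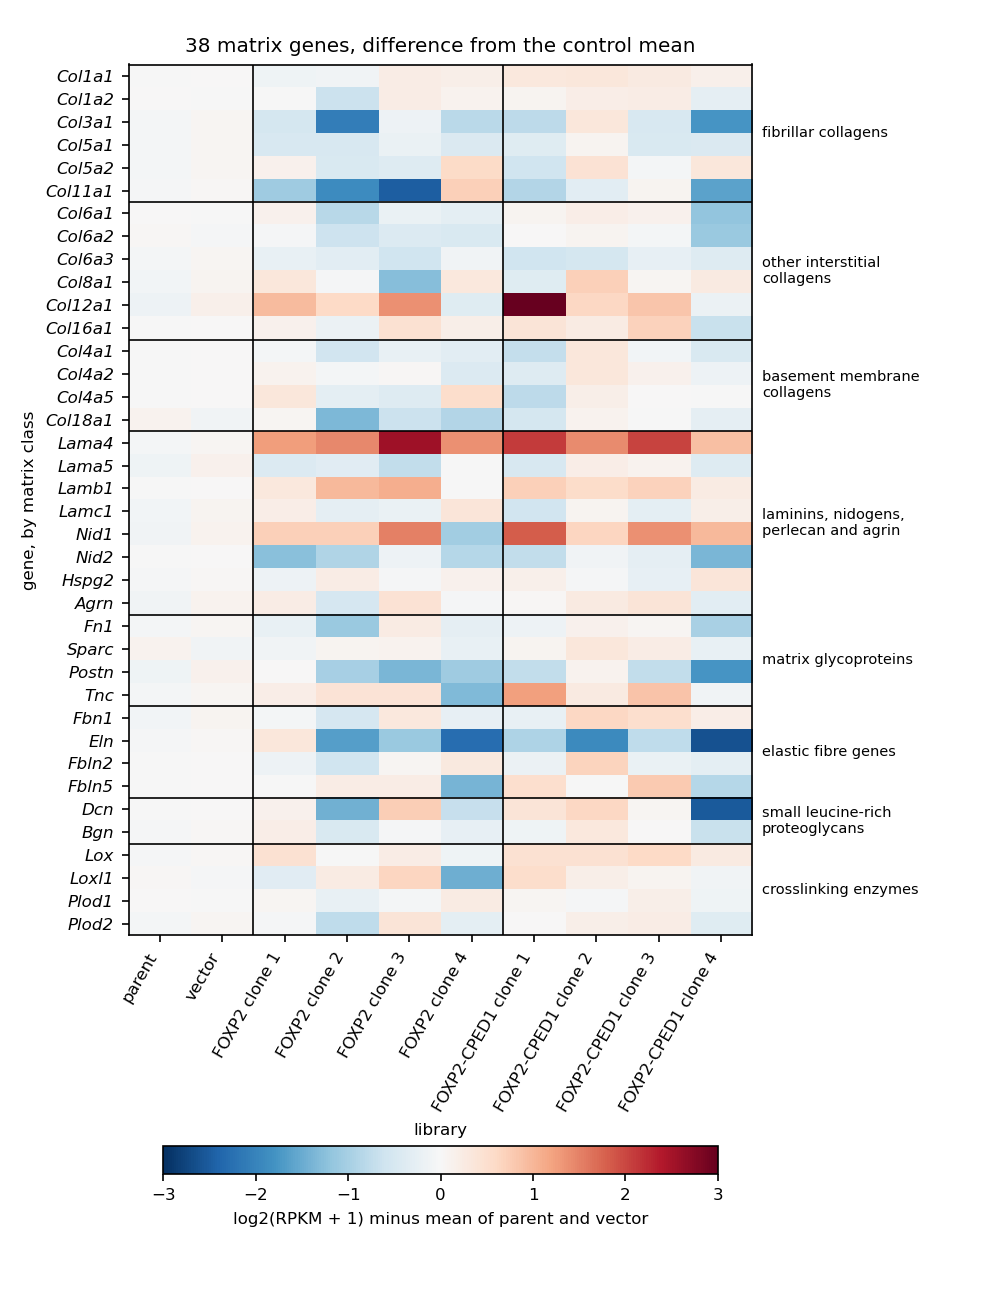
Difference of log2(RPKM + 1) from the mean of parent and vector for the 38 genes (rows, by class) in each library (columns), on a scale from -3 to 3. Red is higher and blue lower than control: Lama4 is red in all 8 clones, and Col3a1, Fn1, Dcn and Col6a1 are lowest in FOXP2 clone 2 or FOXP2-CPED1 clone 4.

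Of the other pairs named for molecular partnership, only Nid1 and Lamc1 passed by Pearson r after adjustment, and none did by Spearman rho. The 10 pairs were adjusted together. Nid1 and Lamc1 had r = -0.78 (exact permutation p = 0.0144, Benjamini-Hochberg 0.0479; rho -0.69, exact permutation p = 0.0694, Benjamini-Hochberg 0.166), and r was -0.53 (exact permutation p = 0.290) without FOXP2 clone 4 and FOXP2-CPED1 clone 1. Lamb1 and Lamc1 had r = -0.79 (exact permutation p = 0.0226, Benjamini-Hochberg 0.0565; rho -0.76, exact permutation p = 0.0368, Benjamini-Hochberg 0.123). Without FOXP2 clones 3 and 4 their r was -0.78 (exact permutation p = 0.0694). Col1a1 and Col1a2 had r = 0.69 (exact permutation p = 0.0456, Benjamini-Hochberg 0.0913), and r was 0.58 (exact permutation p = 0.217) without FOXP2 clones 1 and 2. Of the clones, 5 had mitochondrial rows above 0 and 3 did not. Correlations were given only over 6 or more clones, so none was computed within these sets.

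Further genes of the matrix were taken from 6 lists of other collagens, collagen folding enzymes, basement membrane genes, elastic fibre genes, proteoglycans and glycoproteins. Of 112 listed, 53 were tested and 0 passed the threshold in limma in any of the 4 comparisons, and 7 had an unadjusted p under 0.05 with FOXP2, 5 with FOXP2-CPED1, 1 between the constructs and 7 with all 8 clones. These were 13.2, 9.43, 1.89 and 13.2% of the 53, against 8.52, 7.28, 2.16 and 9.10% of all rows. Comp, a cartilage matrix protein, was at 1.33 and 1.05 RPKM in control and 0.102 to 0.600 in the clones (log2 fold change over 8 clones -0.79 ± 0.20, adjusted p = 0.176). Col7a1, of anchoring fibrils, was at 5.40 and 5.53 in control and 1.85 to 5.07 in the clones (-0.66 ± 0.21, adjusted p = 0.334). Creb3l1, a transcription factor of collagen secretion, was at 6.41 and 7.19 in control and 2.02 to 4.83 in the clones (-0.78 ± 0.25, adjusted p = 0.319). Mfap5, a microfibril protein, was at 32.0 and 32.4 in control and 11.7 to 31.6 in the clones (-0.66 ± 0.23, adjusted p = 0.401). Ogn, a small leucine-rich proteoglycan, was at 6.69 and 7.03 in control and 0.474 to 8.83 in the clones, which overlap (-0.90 ± 0.62, adjusted p = 0.738).

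Beside the matrix genes, the summed level of 6 measured myofibroblast and smooth muscle markers was 590.1 to 593 RPKM in control, 38.6 to 266 in FOXP2 and 95.04 to 470.1 in FOXP2-CPED1 clones. Most of that sum was Acta2, at 482 and 491 RPKM in control and 28.6 to 414 in the clones. Over all 8 clones 0 of the 6 had a positive fold change and 2 passed in limma, where 0.537% of all rows did. Cnn1, another of the 6, was at 1.94 and 1.97 RPKM in control and 0.753 to 3.00 in the clones, which overlap. Of the 2 that passed, Lmod1 (an actin nucleator) was at 3.40 and 3.17 RPKM in control and at most 0.390 in the clones. It fell by 1.90 ± 0.18 on log2(RPKM + 1), a scale that understates falls to such low levels (all 8 clones against control, limma adjusted p = 0.00142). The part of these markers in the matrix differences was not tested.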

How the data were processed

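RNA was sequenced in 10 libraries: 2 control, 4 FOXP2 and 4 FOXP2-CPED1. The authors deposited 1 table of RPKM values per transcript or gene row, made with HISAT2 and StringTie on mm9, per the submitters' processing notes. For the annotation, software versions, strand setting and filters, nothing is stated in the labels. RPKM values are not counts, and depth is known only relative to the parental library. Coordinates of sequences are those of RefSeq on GRCm38.p6, used for names and promoter windows only.

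Rows naming a gene with at least 1 RPKM in at least 2 libraries were tested (12842 of 18430). Rows that name no gene held 3.37 to 4.54% of the summed RPKM and were left out. For the 4 genes with 2 rows, the row of higher mean was used. limma 3.58.1 (R 4.3.3) was fitted to log2(RPKM + 1) over the 3 arms with an intensity trend, 2-sided, with Benjamini-Hochberg adjustment over all tested rows and a threshold of 0.05. Fold changes on this scale understate those of low genes. Partner pairs were compared by correlation over the 8 clones with exact 2-sided permutation tests.

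The members and lists were chosen with earlier results of these data known. Genes named with full statistics were, per matrix class, the 2 of smallest p in each comparison with control and the 1 of smallest p between constructs, the 6 of highest mean level, those whose clones spanned at least 8-fold on RPKM + 1, and from each companion list the 1 of smallest p. The result for 1 gene is not reported here. Col3a1, Lamb1 and Lmod1 fall outside this rule and were chosen after their values were seen. Other members were described by their range. Alternatives covered the pseudocount, the filter, the normalization, the variance model, the arms fitted, library weights, duplicate rows, clone number as a block and leaving out each library. The second Col6a1 row, and the sum of both rows, were added after seeing the data.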

Additional observations from a re-analysis of the deposited data

Results flagged for a closer look

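Of 76 groups of 4 clones checked for 1 value far from the other 3 (Dixon's ratio above 0.829 on log2(RPKM + 1)), 6 held such a value, and chance gives about 1 in 20. In FOXP2-CPED1 clone 4, Col6a1 was at 100.4 RPKM, where the other 3 clones were at 243 to 266, and Col6a2 was at 89.3 RPKM, where they were at 186 to 204. In FOXP2 clone 3, Lama4 was at 22.9 RPKM against 8.80 to 10.3 in the other FOXP2 clones. In FOXP2 clone 4, Tnc was at 1.61 RPKM against 6.51 to 7.74, and Fbln5 at 22.8 RPKM against 60.7 to 72.0. In FOXP2-CPED1 clone 2, Fbln2 was at 713.1 RPKM against 360.5 to 392. Both chains of collagen VI that are encoded on chromosome 10 were low in FOXP2-CPED1 clone 4. In that clone 28 of the 38 genes lay below both controls, where 42.4% of all rows did. Whether the shared chromosome bears on this was not tested.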

How the results depend on the processing

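The count of matrix genes past the threshold was 0 in each comparison under every alternative run except 1. With libraries weighted by quality in limma it was 4 with FOXP2 (Col5a1, Lama4, Lox, Nid2), 4 with FOXP2-CPED1 (Col6a3, Lama4, Lamb1, Lox) and 6 with all 8 clones (these 6 being Col5a1, Col6a3, Lama4, Lamb1, Lox and Nid2), and 0 between the constructs. In that fit 16.3, 7.23 and 14.3% of all rows were past the threshold, and the weights ran from 0.196 (FOXP2 clone 2) to 6.62 (FOXP2 clone 1). Leaving out each library in turn gave 0 to 0 genes in each comparison. Without a control library the counts over all rows were 2 and 3 with FOXP2, 0 and 2 with FOXP2-CPED1, and 2 and 3 with all 8 clones, against 56, 45 and 69. The adjusted p of Lama4 ranged over the alternatives from 0.00363 to 0.971 with FOXP2, from 0.00205 to 1.00 with FOXP2-CPED1 and from 0.00111 to 0.998 with all 8 clones, and its log2 fold change stayed between 1.32 and 1.89. With the clone number as a replicate block, 0 genes passed between the constructs, as without it. Correlations between clones of the same number were -0.24 to 0.28, and 1 of 4 clones of each construct correlated best with its own number. These values showed no pairing by number, but with 4 clones of each construct they cannot settle whether clones were paired. Of 23 named genes, 12, 18, 8 and 16 kept the sign of the fold change under every setting in the FOXP2, FOXP2-CPED1, between-construct and all-clone comparisons. Absolute depth is unknown, which limits what can be said of genes near 1 RPKM such as Lama5.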
